A study of Drosophila melanogaster with 4 samples.

Results

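The genes described here lie on the X chromosome of Drosophila melanogaster and are known in the deposited tables only by a CG number, the systematic name that a predicted fly gene keeps until it is given a proper one. They were chosen as all genes placed on the X with such a name and a mean over the 4 groups of at least 10 CPM (counts scaled to 1000000 per sample), after averaging the transcript models of each gene. The rule kept 410 of 1287 X genes with a CG name, out of 14161 genes in all, of which 6308 reached that mean. RNA of larvae at the third instar, the last larval stage, was sequenced from 4 groups: females and males with the normal chromosome complement, and females and males trisomic for the left arm of chromosome 2 (2L), with 3 copies of that arm where normal larvae have 2. All larvae were raised at 25 degrees. Each group has 4 biological replicates according to the labels. The design text calls the source of the normal larvae Cantons. Neither the strain of the trisomic larvae nor the way the trisomy was made is given there, so a difference of strain or of developmental age between the karyotypes cannot be told apart from one of karyotype. The X itself was at its normal dose in all 4 groups.

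The authors deposited 1 mean CPM value per transcript model and group, and models were averaged here to 1 value per gene. No spread between larvae could be computed, nothing was tested, and "higher" and "lower" refer to the size of a difference between 2 means. Differences are given on the log2 scale of CPM plus 1, which understates changes of low genes. A gene is counted as higher or lower between karyotypes at 1.5-fold and between sexes at 2-fold on that scale. CPM is not scaled for gene length, so levels are compared for a given gene between groups and not between genes.

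Male flies have a single X and females have a pair of them. In males the MSL complex, made of MSL proteins and the roX RNAs, binds the X and raises its transcription, while in females the protein Sex-lethal (Sxl) blocks the making of MSL2. In flies with an extra autosomal arm, genes on the other chromosomes, which are unlinked to the dose change, can also shift in expression.

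Many of these genes have been given a name since the tables were made. All 410 were found in current RefSeq gene records (Release 6 assembly), 399 by locus tag and 11 by synonym, and all 410 lay on the X there. The current symbol was still the same CG number for 257 and another CG number for 5, and 148 now have a symbol that is not one. Of the 410, 409 are listed as protein coding, and CG32652 is listed as a long noncoding RNA. A single transcript model stood behind 271 members and more than 1 behind 139, up to 8 for CG34417. In 12 members at least 1 model carried the same values as a model filed under another gene name, so those cannot be read as separate genes. Among these were CG33713 (now anox) and CG33714 (SLIRP1), whose models agreed throughout, CG15891 and CG15892, and CG14425, whose values were those of Sxl models. The pairs CG33691 and CG33692 (now CG43736) and CG32662 and CG32663 (now rudhira) are each 1 gene in current records.

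The minimum of 10 CPM shaped the set. In 308 members the value was at least 10 CPM in all 4 groups. Another 20 were under 10 CPM in both female groups and above it in both male groups, and 1 was the reverse. A further 24 were under 10 CPM in both normal groups and above it in both trisomic groups, and 12 were the reverse. These counts were not made over all genes, and the rule itself used the mean of the same 4 values. They are therefore not traits particular to the members. Just below the threshold were CG32813 with a mean of 9.96, CG12992 with 9.98 and CG18508 with 9.98 CPM, and just above it CG32548 with 10.06, CG8173 with 10.1 and CG15034 with 10.1 CPM. The 877 X genes with a CG name that fell below the minimum had median values of 1.28 CPM and 2.74 CPM in normal females and males, and of 1.59 and 2.28 in trisomic ones.

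Between karyotypes, the median change of these X genes was small in both sexes, while the other large autosomal arms had a negative one. CPM is a share of a fixed total per group, so absolute levels of either cannot be read from it. The summed value of the 410 members was 17833 CPM in normal females, 15960 in trisomic females, 16330 in normal males and 15585 in trisomic males. In females the median change was -0.04 with quartiles of -0.42 and 0.38, against a median of -0.06 over all genes. There, 62 members (15.1%) were at least 1.5-fold higher, against 15.3% of all 6308 genes, and 65 (15.9%) were lower, against 18.3%. In males the median change was -0.01, with wider quartiles of -0.53 and 0.47, against a median of -0.18 over all genes. There, 88 members (21.5%) were higher, against 17.0% of all genes, and 92 (22.4%) were lower, against 29.5%.

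The balance of higher and lower members depended on what they were measured against. Over all genes of 2R, 3L and 3R the female median was -0.20 and the male median -0.31. Relative to it, the members had a median of 0.16 in females, a 1.12-fold difference, and of 0.30 in males, a 1.23-fold difference. On that scale 101 members (24.6%) were higher and 24 (5.85%) lower in females, against 22.3% and 7.51% of all genes. In males 138 (33.7%) were higher and 47 (11.5%) lower, against 27.6% and 14.5%. Against 2R, 3L and 3R genes that also have only a CG number, 1970 in all, with median changes of -0.25 in females and -0.40 in males, the members lay 1.16-fold and 1.31-fold higher. The 465 named X genes had medians of 0.05 and -0.03, and the 646 genes on 2L with a CG number had medians of 0.14 and -0.00, so all 3 of these sets lay above the remaining arms in both sexes.

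**Figure D1:**
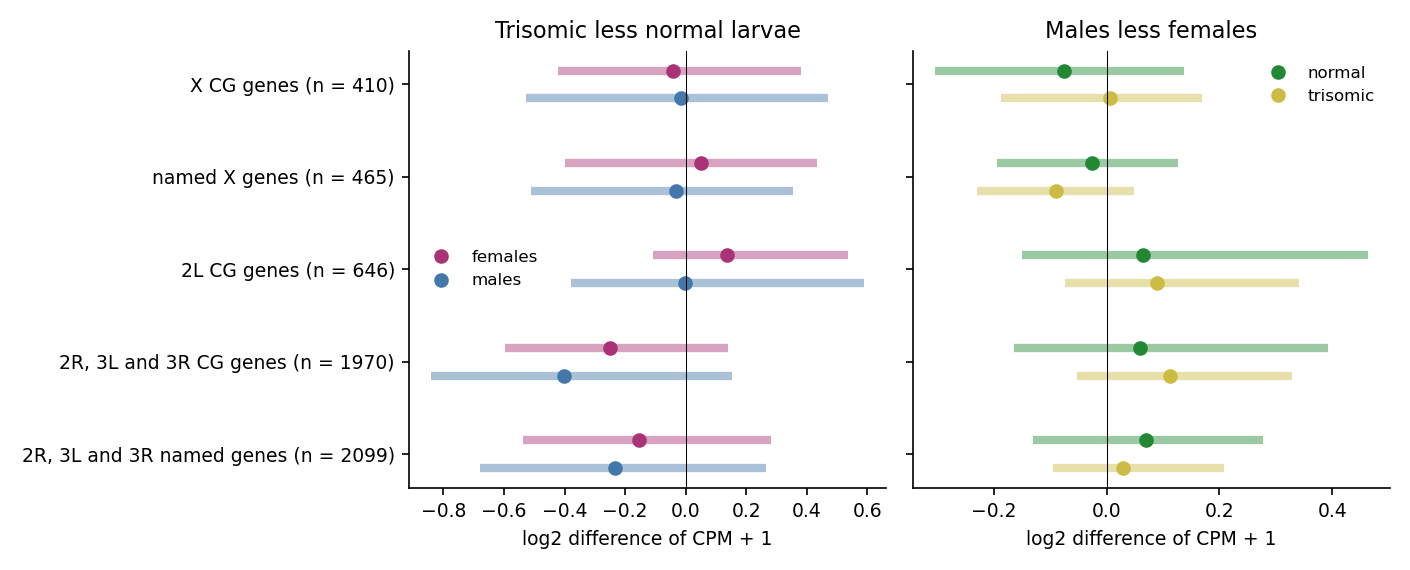
Points give the median and bars the range from the lower to the upper quartile over genes of the log2 difference of CPM plus 1, for X genes with a CG number and 4 other gene sets; the left panel shows trisomic less normal larvae in each sex and the right panel males less females in each karyotype. X genes with a CG number are centred at -0.04 in females and -0.01 in males, above the CG genes of 2R, 3L and 3R at -0.25 and -0.40.

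In females the median change of the members was lower the higher their level, and in males only the most abundant members stood apart. Members were split by their mean over the 4 groups and set beside 2R, 3L and 3R genes of the same level. The 202 members of 10 to 20 CPM had median changes of 0.06 in females and -0.02 in males, which lay 0.22 and 0.31 above the autosomal genes of that level. At 20 to 50 CPM, with 133 members, the differences were 0.16 and 0.33, and at 50 to 100 CPM, with 50 members, they were 0.17 and 0.27. The 25 members of at least 100 CPM had medians of -0.39 and -0.22, and these differed from autosomal genes of that level by -0.02 in females and 0.00 in males. The offset from the autosomes was therefore seen in the 3 lower classes and not among the most abundant members.

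Females and males changed alike gene by gene. Of the 410 members 59 were higher in both sexes (14.4%, against 12.4% of all genes) and 49 were lower in both (12.0%, against 15.2%). Another 43 were lower in males without passing the threshold in females, 28 were higher in males without passing it in females, 15 were lower and 3 higher in females without passing it in males, and 212 passed it in neither sex. The change had the same sign in both sexes in 326 members and was the larger in males in 257. These counts, and the correlations that follow, were not computed over all genes, so they are not traits particular to the members. Over all genes the quartiles were also wider in males (-0.67 and 0.34) than in females (-0.48 and 0.32). Across the 410 genes, which are not independent replicates and share the 4 groups of libraries, Pearson's r of the female and male change was 0.83 and Spearman's rho was 0.79.

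**Figure D2:**
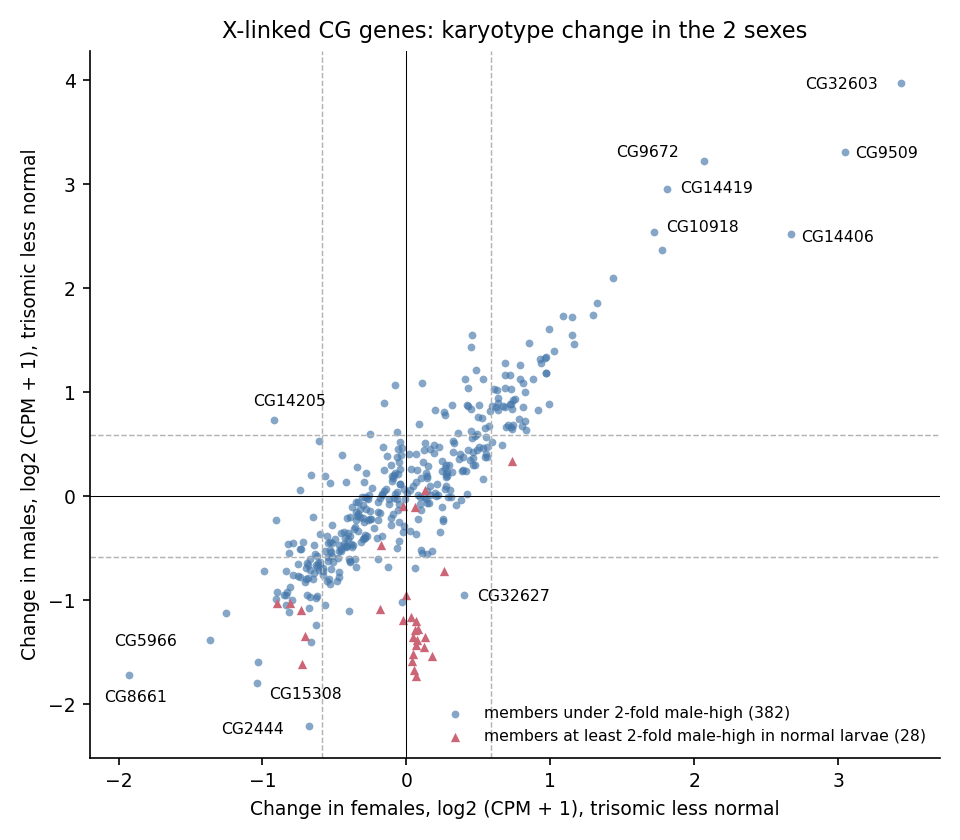
Each point is 1 of the 410 X genes with a CG number, placed by its log2 change of CPM plus 1 from normal to trisomic females (horizontal) and males (vertical); dashed lines mark 1.5-fold and triangles mark the 28 members at least 2-fold higher in normal males than in normal females. Most points lie along the diagonal, CG32603 stands highest at 3.44 and 3.97, CG14205 alone lies past the lines in opposite directions, and most triangles lie below 0 in males near 0 in females.

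The largest increases were in the same 10 members in both sexes, and 9 of these 10 had the larger log2 change in males. No such count was made for other genes. CG32603 was at 26.4 CPM in normal and 296 in trisomic females, and at 20.3 in normal and 333 in trisomic males, changes of 3.44 and 3.97. CG9509, now fiz (fezzik), an oxidoreductase of the GMC family, was at 10.04 and 90.2 CPM in normal and trisomic females and at 9.27 and 101 in males, changes of 3.05 and 3.31. CG14406 was at 1.89 and 17.5 CPM in normal and trisomic females and at 2.60 and 19.7 in males, changes of 2.67 and 2.52. In all 3 the trisomic values of both sexes stood far above both normal values, and the sexes lay close to each other within a karyotype.

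The next 3 members were lower in normal males than in normal females. CG9672 was at 7.19 and 33.3 CPM in normal and trisomic females and at 3.88 and 44.6 in males (changes of 2.07 and 3.23). CG14419 was at 7.27 and 28.1 CPM in females and at 2.96 and 29.7 in males (1.81 and 2.96). CG10918 was at 25.5 and 86.3 CPM in females and at 11.7 and 73.0 in males (1.72 and 2.54). In each of them the male and female values lay closer together, as a ratio, in trisomic than in normal larvae. CG32564 had changes of 1.78 in females and 2.36 in males, CG10962 of 1.32 and 1.86. The remaining 2 of the 10 encode enzymes. CG2254, now Ldsdh1, a short-chain dehydrogenase found on lipid droplets, was at 21.0 and 58.6 CPM in females and at 18.3 and 81.5 in males (1.44 and 2.10). CG1753, now Cbs, cystathionine beta-synthase of the transsulfuration pathway, was at 8.79 and 23.0 CPM in females and at 8.21 and 29.8 in males (1.29 and 1.74).

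The largest decreases were less alike, with 3 of 10 members shared by the lists of both sexes: CG8661, CG15308 and CG32581. CG8661 was at 736 CPM in normal and 193 in trisomic females and at 468 and 142 in males, changes of -1.93 and -1.72. CG15308 was at 177 and 85.9 CPM in females and at 99.8 and 28.1 in males, changes of -1.04 and -1.79. CG32581, now sordd2, was at 35.6 and 16.95 CPM in females and at 39.7 and 12.5 in males, changes of -1.03 and -1.59. In each of these, both trisomic values lay below both normal values. CG5966, a predicted triglyceride lipase, was at 63.0 and 23.9 CPM in females and at 54.5 and 20.4 in males, with nearly equal changes of -1.36 and -1.38. CG3690 had changes of -1.25 and -1.13, CG12715 of -0.90 and -0.92, CG9903 of -0.99 and -0.72, and CG14812 (Lamtor5) of -0.90 and -0.99. CG1461, now Tat, a tyrosine aminotransferase, was at 39.8 and 20.7 CPM in females (-0.91) but at 26.1 and 22.3 in males (-0.22), so it passed 1.5-fold in females alone, and the difference between the sexes was not tested.

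In males the largest decrease was that of CG2444, at 725 CPM in normal and 156 in trisomic males (-2.21), with 419 and 261 CPM in normal and trisomic females (-0.68). Normal males had its highest value of the 4 groups and trisomic males its lowest. Of the 10 largest decreases in males, 5 were in members under 1 CPM in both female groups, which are described with the male-high genes: CG4661, CG2750, CG15034, CG16782 and CG15572. CG5877 was low in females too, at 10.6 and 6.03 CPM in normal and trisomic females (-0.72), and was at 45.9 and 14.3 CPM in males (-1.62).

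CG2444 was also among the 5 members with the highest mean values, and the other 4 differed less than it did between karyotypes in males. CG2233 was at 911 CPM in normal females and 893 in normal males, against 809 in trisomic females and 687 in trisomic males. CG8664 was at 916, 514, 767 and 781 CPM in the same order. CG12057 was at 579, 330, 425 and 434 CPM. In CG8664 and CG12057 the normal males had the lowest of the 4 values. CG10992, now CtsB, the lysosomal protease cathepsin B, was at 654, 524, 366 and 271 CPM and was lower in trisomic larvae of both sexes (-0.83 and -0.95).

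Current symbols placed 58 members in 8 groups by known role. These groups were drawn up with the values of these data known, and their counts are descriptions. Every count in them stands beside shares over all genes of 15.3% higher and 18.3% lower in females, and 17.0% higher and 29.5% lower in males. Of 12 enzymes and proteins of lipid droplets, peroxisomes and fatty acid metabolism, 4 were higher and 0 lower in females. In males 6 were higher and 1 lower. The medians were 0.35 in females and 0.57 in males, against -0.06 and -0.18 over all genes. Mfe2 (CG3415), a peroxisomal enzyme of fatty acid oxidation, was at 37.2 and 84.0 CPM in normal and trisomic females and at 32.9 and 111 in males (1.15 and 1.72). Acat1 (CG10932), a mitochondrial thiolase, had changes of 0.99 and 1.61, and Pex5 (CG14815), the receptor that carries enzymes into peroxisomes, of 0.74 and 0.92. Abcd3 (CG12703), a transporter of the peroxisomal membrane, and Seipin (CG9904), which shapes lipid droplets, passed 1.5-fold in males (0.87 and 1.04) and had 0.43 each in females. Ldaf1 (CG32803), a partner of Seipin, was lower in males (-0.84; -0.53 in females).

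Among 4 enzymes of amino acid and one-carbon metabolism, Cbs and Shmt (CG3011, serine hydroxymethyltransferase) were higher in both sexes, Shmt by 0.82 in females and 1.0 in males. Bcat (CG1673), which transaminates branched-chain amino acids, was higher in males (0.77; 0.50 in females). Tat (CG1461), the other member of that group, went the other way and was lower in females (-0.91; -0.22 in males). Of 6 translation factors, 2 were higher and 1 lower in females (15.3% and 18.3% of all genes), and 3 were higher and 0 lower in males (17.0% and 29.5%). The higher ones were alpha-PheRS (CG2263), a subunit of phenylalanyl-tRNA synthetase (1.02 and 1.39), Pdcd4 (CG10990), an inhibitor of initiation (0.64 and 0.94), and in males eIF3g1 (CG8636), an initiation factor subunit (1.12; 0.53 in females). MCTS1 (CG5941) and DENR (CG9099), which act together in reinitiation, had negative changes in both sexes, -0.62 and -0.57 for MCTS1 and -0.40 and -0.41 for DENR, of which MCTS1 in females passed 1.5-fold. The remaining gene, tyf (CG4857), was within 1.5-fold in both sexes (0.26 and -0.22).

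The 13 members of the mitochondrial respiratory chain and its assembly stayed within 1.5-fold with 1 exception. In females 0 passed 1.5-fold and the median was -0.30. In males the assembly factor Coa7 (CG13865) alone was lower (-0.80) and the median was -0.05. Both of the larger TOR and autophagy decreases were seen in both sexes: Lamtor5, part of the Ragulator complex that anchors TORC1 regulators on lysosomes, was at 24.2 and 12.5 CPM in females and 22.0 and 10.6 in males. Atg101 (CG7053), of the Atg1 kinase complex that starts autophagy, had changes of -0.84 and -1.05. The other member of that group, Lst8 (CG3004), a TOR partner, was within 1.5-fold in both sexes.

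In the group of 9 for GPI anchors and protein maturation in the endoplasmic reticulum, 2 were higher and 0 lower in either sex. These were the chaperone Grp170 (CG2918; 0.97 and 1.19) and GAA1 (CG3033; 0.64 and 0.90), a subunit of the enzyme that attaches GPI anchors. PIG-T and PIG-K, subunits of the same enzyme, had changes of opposite sign, all within 1.5-fold, with 0.43 and 0.45 for PIG-T and -0.52 and -0.57 for PIG-K. The genes for nuclear pore and envelope proteins included Nup205 (CG11943), higher in both sexes (0.83 and 0.63), and Elys (CG14215), higher in females (0.73; 0.34 in males). Among 7 ubiquitin proteases and ligases the ligase Hecw (CG42797) was the only one past the threshold, lower in males (-1.08; -0.18 in females).

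Between the sexes, the members were slightly lower in males than in females of normal larvae, and level in trisomic larvae. The direction in normal larvae holds for the minimum of 10 CPM: over all 1287 X genes with a CG number the median was 0.0153, and over the 208 with at least 20 CPM it was -0.15. The median male to female difference was -0.08 in normal larvae, 0.949-fold, with quartiles of -0.30 and 0.14, and 0.01 in trisomic larvae. All genes of 2R, 3L and 3R had medians of 0.06 and 0.07, so relative to these arms the members stood at -0.14 in normal larvae (0.908-fold) and at -0.06 in trisomic larvae (0.957-fold). On that scale the trisomic median lay below 0 as well. The named X genes had unscaled medians of -0.03 in normal and -0.09 in trisomic larvae, an order opposite to that of the members. The difference from 2R, 3L and 3R genes of the same level was similar in every level class of normal larvae, at -0.16 for 10 to 20 CPM, -0.16 for 20 to 50 CPM, -0.22 for 50 to 100 CPM and -0.19 from 100 CPM. In trisomic larvae these were -0.10, -0.06, -0.04 and -0.09.

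Members that have since been renamed had other medians than those that kept a CG number as it was. In the 153 with another symbol the median male to female difference was -0.02 in normal and -0.01 in trisomic larvae, and in the 257 that kept theirs it was -0.10 and 0.01. Between karyotypes the renamed members had medians of 0.08 in females and 0.03 in males, and the others had -0.08 and -0.08. In females 13 of the renamed (8.50%) and 52 of the others (20.2%) were at least 1.5-fold lower, against 18.3% of all genes.

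Of the 410 members 28 (6.83%) were at least 2-fold higher in normal males than in normal females, against 9.32% of all genes. With a minimum of 20 CPM 6 of 208 (2.88%) were. At 10 CPM the share was 3.23% for named X genes, 17.0% for 2L genes with a CG number and 13.1% for such genes on 2R, 3L and 3R. In trisomic larvae 23 members (5.61%) were male-high, against 7.72% of all genes. Female-high members numbered 7 in normal larvae (1.71%, against 0.523%) and 3 in trisomic larvae (0.732%, against 0.412%).

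**Figure D3:**
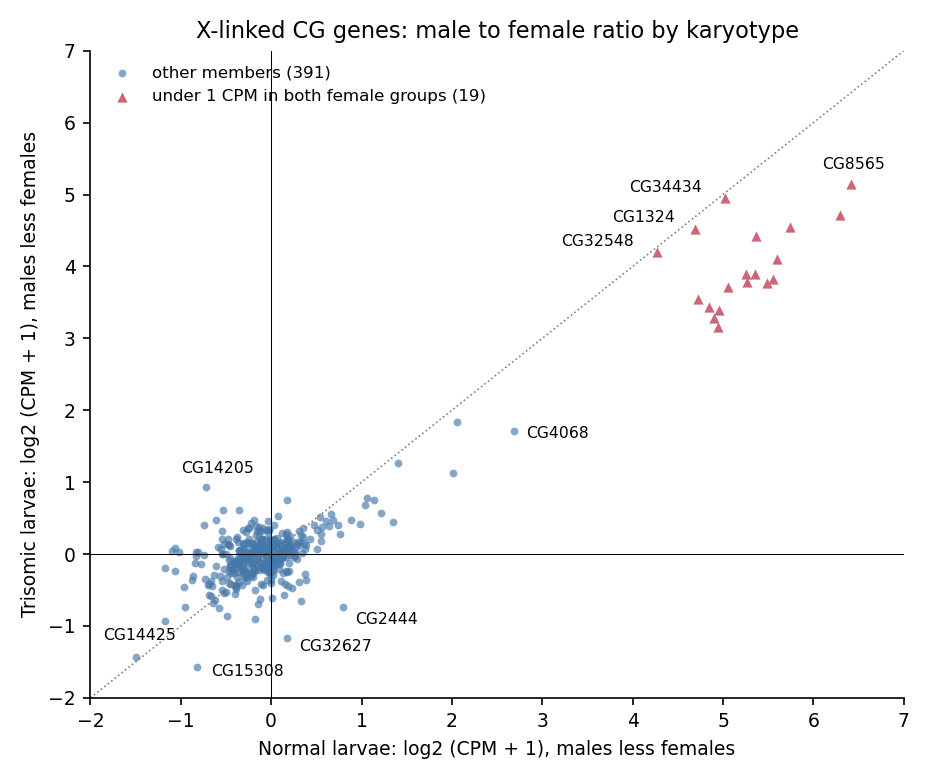
Each point is 1 of the 410 X genes with a CG number, placed by the log2 difference of CPM plus 1 between males and females in normal (horizontal) and trisomic (vertical) larvae; the dotted line marks equal differences and triangles mark the 19 members under 1 CPM in both female groups. Triangles stand apart at 4.27 or more in normal larvae and below the dotted line, with CG34434, CG1324 and CG32548 close to it.

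The male-high members were of 2 kinds, one nearly silent in females and one not. In 19 of the 28 both female groups were under 1 CPM, from 0.0659 to 0.382 in normal and from 0.0967 to 0.453 in trisomic females. They were kept through their male values alone, which lay between 19.5 and 116 CPM in normal males with a median of 40.3, and between 9.05 and 49.9 in trisomic males with a median of 17.0. CG8565 was the highest, at 0.367 CPM in normal females and 116 in normal males, against 0.435 in trisomic females and 49.9 in trisomic males. CG32652, the noncoding RNA, was at 0.255, 97.5, 0.367 and 35.1 CPM in the same order. CG1394 had 67.5 CPM in normal and 29.5 in trisomic males, and CG15208 had 55.1 and 19.9.

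Trisomic males had less of most of these RNAs. Of the 19, 16 were at least 1.5-fold lower in trisomic than in normal males and 0 were higher, against 29.5% and 17.0% of all genes, with a median change of -1.36. Their sum was 916 CPM in normal and 402 in trisomic males. Both the choice of these genes and their passing of the 10 CPM minimum rest on male values that also enter this change, so the count is a description. CG2750 went from 53.5 to 16.1 CPM (-1.67) and CG4661 from 32.2 to 9.05 (-1.73). The 3 that did not pass were CG34434, at 41.1 and 38.4 CPM, CG1324, at 29.2 and 27.1, and CG32548, at 19.5 and 20.4, so these kept their normal male level. All 19 were still at least 2-fold higher in trisomic males than in trisomic females.

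**Figure D4:**
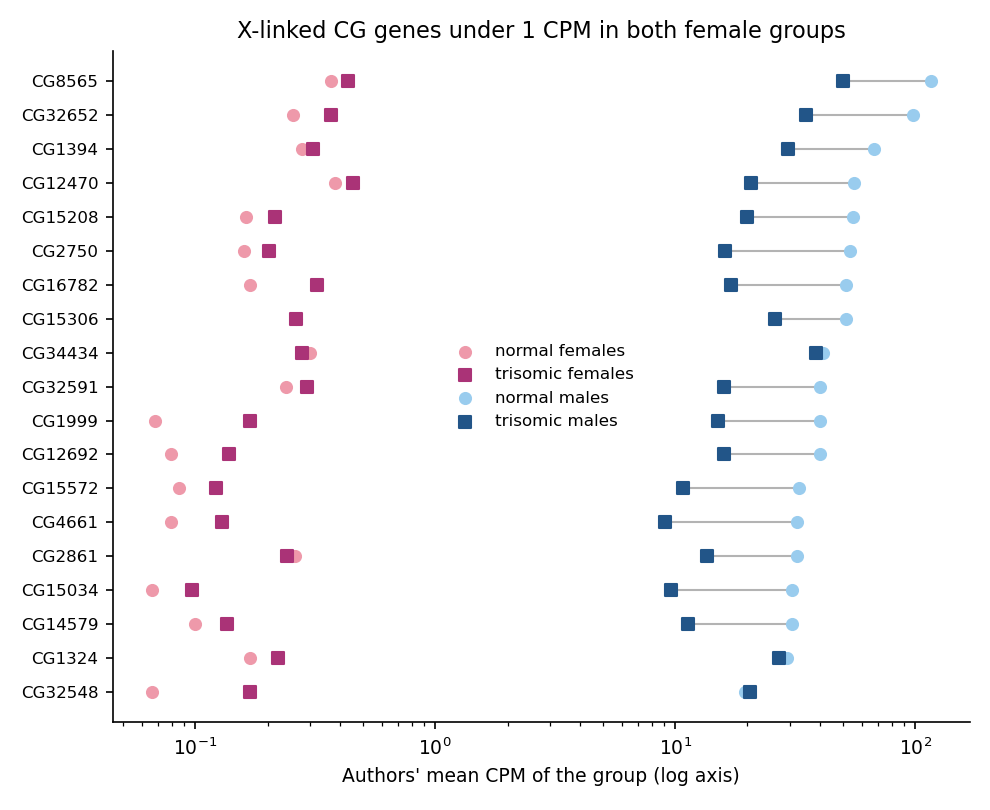
Authors' mean CPM on a log axis in each of the 4 groups for the 19 X genes with a CG number that were under 1 CPM in both female groups, ordered by the normal male value; grey lines join normal and trisomic males. Values of trisomic males lie to the left of those of normal males except for CG32548, and the pairs of CG34434, CG1324 and CG32548 lie close together.

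Markers of the testis were also lower in trisomic males. Of 25 marker genes of testis and spermatocytes 23 were found, and 20 of the 23 were lower in trisomic males by 1.5-fold or more, against 29.5% of all genes, with a median of -1.23. The 3 others, topi (-0.09), nht (-0.26) and mia (-0.37), were among the 8 that did not reach a mean of 10 CPM. The summed level of the 23 was 20.7 CPM in normal females and 1123 in normal males, against 22.9 in trisomic females and 437 in trisomic males. Of 9 germline markers shared by both sexes, 0 reached 10 CPM, and their sum was 37.0 CPM in normal and 29.7 in trisomic males. In whole larvae fewer cells of a type and less RNA per cell cannot be told apart, and the part of testis content in the male-high members was not tested. Without the 28 male-high members the median change was -0.05 in females and 0.02 in males. Of the 382 left, 69 were lower and 88 higher in males, against 29.5% and 17.0% of all genes. Those shares over all genes include male-high genes. The median male to female difference of the 382 was -0.10 in normal and -0.03 in trisomic larvae.

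The other 9 male-high members were between 7.63 and 18.6 CPM in normal females. CG4068 (now filed as CG44774) was at 18.6 CPM in normal females and 125 in normal males, against 22.5 in trisomic females and 75.6 in trisomic males. CG5877, CG15891, CG15892, CG12118, CG2061, CG4880, Hecw and Elys completed them. Of the 9, 7 were lower in trisomic males, against 29.5% of all genes. Their choice rests on normal male values that also enter this change, so the count is a description. CG15891 and CG15892 share a model and do not count as separate genes. CG15892 combined 2 unlike models. One was at 0.251 CPM in normal females and 30.2 in normal males, against 0.296 in trisomic females and 14.4 in trisomic males, a male-limited pattern, and the other, shared with CG15891, was at 16.2, 44.3, 8.23 and 21.2 CPM. No other member had models whose karyotype changes spread by more than 0.5, and the next widest, 0.34 to 0.41, were those of CG1637, CG34417, CG42376 and Pdcd4.

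The role groups are given here by the number of members with the higher value in males, which over all genes was 56.2% in normal and 57.9% in trisomic larvae. All 7 ubiquitin genes had the higher value in normal males, from 0.17 for Ubr1 to 1.35 for Hecw with a median of 0.43, and 4 of 7, near the share over all genes, in trisomic males. HUWE1 (CG8184), a large ubiquitin ligase, was at 57.3 CPM in normal females and 71.0 in normal males, against 63.3 in trisomic females and 48.1 in trisomic males. In the respiratory chain group this held for 2 of 13 in normal and 11 of 13 in trisomic larvae, with medians of -0.14 and 0.13. For lipid droplet, peroxisome and fatty acid genes these counts were 2 and 8 of 12, with medians of -0.17 and 0.19. The remaining groups moved less: 2 and 4 of 9 for GPI anchors and protein maturation, and 2 and 4 of 6 for translation. The counts were 0 and 2 of 4 for amino acid and one-carbon enzymes, and 4 and 3 of 4 for nuclear pore and envelope. For TOR and autophagy they were 0 and 0 of 3.

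The most female-high member of normal larvae was CG14425, at 113 CPM in normal females and 39.6 in normal males, against 70.6 in trisomic females and 25.7 in trisomic males, male to female differences of -1.49 and -1.43. RefSeq lists this number as a synonym of Sxl, the switch gene of female development, and both CG14425 models had the values of Sxl models. Of the 21 Sxl models 5 were at least 2-fold female-high in normal larvae, with 102 to 114 CPM in normal females and 34.4 to 40.4 in normal males, and the other 16 had differences of -0.38 to 0.27. The number therefore stood for a subset of Sxl transcripts and not for a further gene. A relative of Sxl among the members, ssx (CG3056, sister of Sex lethal), was at 20.6 CPM in normal females and 29.8 in normal males, against 28.9 in trisomic females and 36.8 in trisomic males.

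CG12116 was female-high in normal larvae (575 CPM in females and 254 in males, -1.17) and remained so below the 2-fold line in trisomic larvae (344 and 179 CPM, -0.94). CG17636 lost its difference, with 46.7 and 21.2 CPM in normal females and males and 30.3 and 31.2 in trisomic ones. CG32633 was at 29.2 and 12.3 CPM in normal females and males and at 40.2 and 34.9 in trisomic ones. CG14419, CG10918 and CG3775 (now Nep6, a neprilysin peptidase) were the other members female-high in normal larvae. In trisomic larvae CG15308 (-1.58) and CG32627 joined CG14425. CG32627, now Nna1, a carboxypeptidase, was at 70.8 CPM in normal females and 80.1 in normal males, against 93.9 in trisomic females and 41.1 in trisomic males, so only trisomic males stood apart.

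The shift of the male to female difference between karyotypes, which equals the difference between the male and the female karyotype change, had a median of 0.03, and relative to 2R, 3L and 3R genes of 0.09. It was at least 1.5-fold upward in 32 members (7.80%, against 5.88% of all genes) and downward in 32 (7.80%, against 9.50%). The largest upward shift was that of CG14205, at 104 CPM in normal females and 62.8 in normal males, against 54.6 in trisomic females and 105 in trisomic males. Its male to female difference went from -0.72 to 0.93, a shift of 1.65, and it was the only member past 1.5-fold in opposite directions in the 2 sexes (0.244% of the members, against 0.222% of all genes). CG9672, CG14419, CG17636 and CG14265 followed with shifts of 1.14 to 1.16. CG14265 was at 161 CPM in normal females, 152 in trisomic females, 110 in normal males and 232 in trisomic males, a change seen in males. The 5 largest downward shifts, from -1.57 to -1.79, all belonged to members with under 1 CPM in both female groups. At that level the scale of CPM plus 1 holds the female change near 0, so their shift is close to the male change. Without the 28 male-high members 12 downward shifts remained. Outside the members under 1 CPM in both female groups, CG2444 (-1.53) and Nna1 (-1.35) had the largest.

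Along the X the members changed without a clear trend. Gene order was taken from RefSeq, and the 410 members were divided into 10 windows of 41. In females the window medians ran from -0.26, in the window from CG34434 to CG4615, to 0.15, in that from CG4199 to CG12730. In males they ran from -0.22, in the window from CG1749 to CG32627, to 0.19, again from CG4199 to CG12730. Set against the autosomal median over 2R, 3L and 3R, 9 of 10 windows lay above 0 in females, the exception being that from CG34434 to CG4615 (-0.07), and 10 of 10 in males (0.09 to 0.50). Of 73 pairs of members that are next to each other among all annotated genes, 39 had changes of the same sign in females and 33 in males. Pairs that share a transcript model, such as CG15892 and CG15891, are among them, and their changes are not separate. No such count was made for other pairs of genes.

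One group of direct neighbours stood out by size. CG9512, CG9509 and CG14406 follow each other with 0 other annotated genes between them, and all 3 were higher in both sexes. CG9512, like fiz a member of the GMC oxidoreductase family, was at 15.8 and 30.9 CPM in normal and trisomic females (0.93) and at 12.2 and 32.1 in males (1.32). The other runs of 3 consecutive members past 1.5-fold in 1 direction, 1 in females and 5 in males, had 2 to 29 other annotated genes between their members. The tightest of them held CG4239, CG9981 and CG4301, higher in males by 0.63, 1.34 and 0.88.

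**Figure D5:**
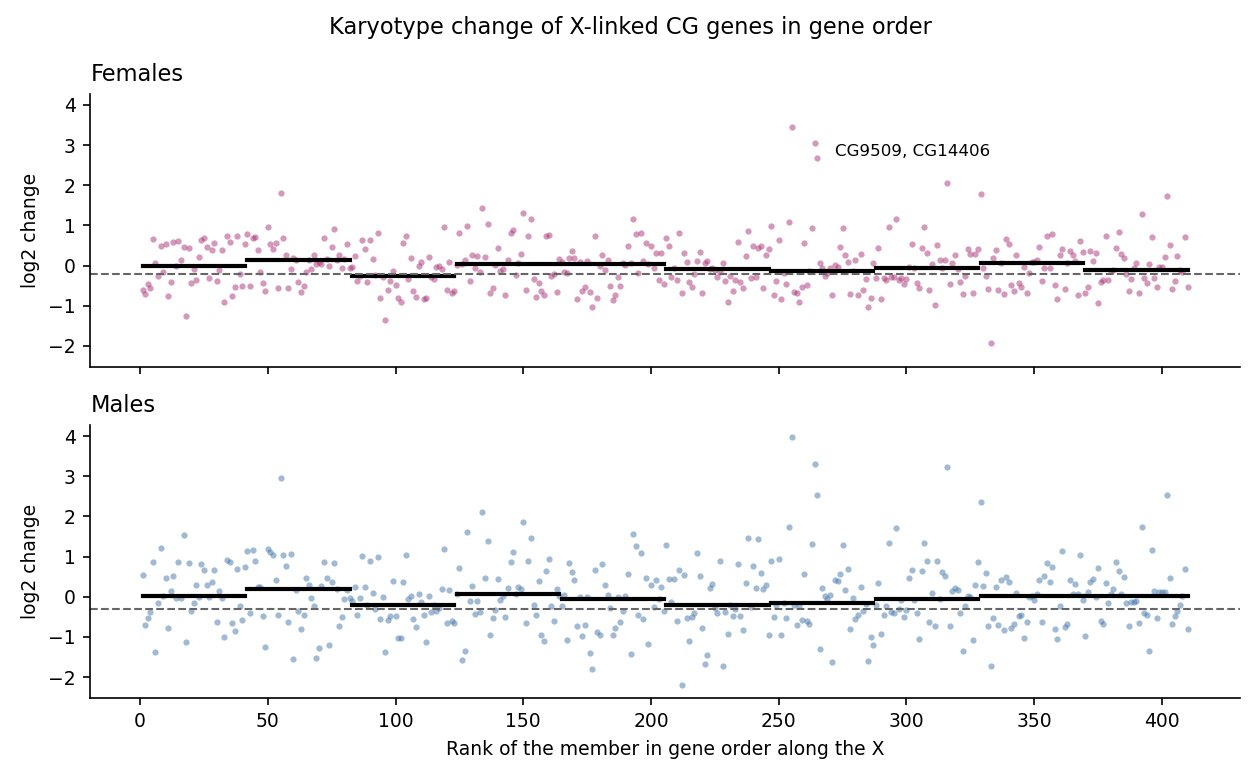
Log2 change of CPM plus 1 from normal to trisomic larvae for each of the 410 members in their order along the X, for females (upper panel) and males (lower panel); black bars give the medians of 10 windows of 41 members and the dashed line that of autosomal genes outside 2L (2R, 3L and 3R; -0.20 and -0.31). Window medians stay between -0.26 and 0.19, above the dashed line except in 1 window in females, and the neighbours CG9509 and CG14406 stand high together.

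Markers of other larval tissues also differed between the groups, and their part in the values above was not tested. The 6 salivary glue genes, made late in the third instar, were all lower in trisomic larvae, with sums of 16662 CPM in normal females and 15393 in normal males, against 4898 in trisomic females and 3559 in trisomic males. Muscle genes were higher, 8 of 12 in females and 10 of 12 in males (15.3% and 17.0% of all genes), with sums of 4876, 3869, 7782 and 9307 CPM in the same order of groups. The sums were 63133, 49201, 73625 and 56075 CPM for 7 fat body genes, 14518, 10353, 10892 and 12174 for 12 midgut genes, and 10914, 9456, 8503 and 8102 for 7 cuticle genes, so RNA of all the main larval tissues was present in each group. The sums were 119, 93.6, 243 and 196 CPM for 4 haemocyte genes and 68.3, 64.4, 99.6 and 89.2 for 6 nervous system genes. Most of the nervous system sums came from Syt1, which lies on 2L, at 49.1, 41.9, 82.1 and 74.0 CPM. The median change of the 6 genes was 0.08 in females and -0.22 in males.

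Of the genes of dosage compensation itself, 8 were looked at and 5 reached 10 CPM (Sxl, msl-1, msl-2, mle and roX1). Those on 2L, present in 3 copies in trisomic larvae, were msl-1 and msl-2, and these were higher in females and males, msl-1 by 0.67 and 0.66 and msl-2 by 0.89 and 0.91. Of the X genes roX1 was higher in females (0.73) and lower in males (-0.82), and Sxl was lower in females (-0.60). Sxl, averaged over its models, was at 48.9 CPM in normal females and 30.6 in normal males, against 31.9 in trisomic females and 21.0 in trisomic males.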

How the data were processed

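Total RNA of larvae was extracted with TRIZOL and sequenced from TruSeq libraries, per the labels' protocols. TopHat, HTSeq and the genome build dm3 are named in the submitters' processing notes, with neither strand setting nor annotation stated there. The deposited values are CPM, averaged by the authors within each group, per the file headers. They sum to 1000000 per group over both tables, and the depth per library is unknown, so no counting error, replicate error or test could be had. In each group some low transcript models carry 1 repeated value. No member was at it.

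Models were averaged per gene, genes under a mean of 10 CPM were dropped, and log2 of CPM plus a pseudocount of 1 was compared. Models of a gene, overlapping genes and close paralogs may share reads. Names and gene order came from RefSeq (Release 6, another build than dm3), and no coordinate was used. The members, gene lists and thresholds were chosen with earlier results of these data known. Genes were named by rule: the extremes of each comparison, the highest means, members beside the minimum, the widest spread between models, opposite changes and runs of neighbours, beside the role groups and marker lists. The other genes named (ssx, CG4068 and its group of male-high members, and the shared models) were chosen after their values were seen. Steps were tested on simulated data. Alternatives were another pseudocount, minimum, model choice, threshold and scaling, and leaving out members. The software was Python 3.11.15 with pandas 2.3.3, numpy 2.4.6, matplotlib 3.10.9 and scipy 1.17.1.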

Additional observations from a re-analysis of the deposited data

Results flagged for a closer look

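CG14205 moved past 1.5-fold in opposite directions in the 2 sexes, with a log2 change from normal to trisomic larvae of -0.92 in females and 0.73 in males. The difference between the sexes was not tested, since each group has a single mean value.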

How the results depend on the processing

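All counts and medians over the 410 members rest on group means, and the order between 2 means of a gene has no replicate check. No paired analysis was possible because the deposited columns are group means, and for the same reason no replicate could be left out. Taking the highest model of each gene, no pseudocount, or leaving out members with shared models moved none of the 15 counts and medians beyond their range, which for a median was its 95% binomial interval over genes and for a count 1.5 times. That interval treats genes as independent and does not measure the uncertainty of a difference between groups. No member was at the repeated low value. Over 139 single named values and 1047 recomputations, 84 fell below their threshold and 0 changed sign. Another minimum cannot change the value of a single gene. Another pseudocount or threshold cannot change the sign of a difference between 2 groups. The absence of sign changes was therefore largely fixed in advance and is no check of the values.

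With a pseudocount of 5, members lower in females numbered 39, female-high members of normal larvae 2 and upward ratio shifts 21. With a minimum of 20 CPM, 208 members remained: the median was -0.10 in females, 30 were higher and 41 lower there, 46 higher and 45 lower in males, the normal sex median was -0.15, male-high members were 6 in either karyotype, the median shift was 0.10 and downward shifts were 13. With no minimum, 186 of 1287 were higher and 145 lower in females, 180 higher and 296 lower in males (median -0.12). The normal male to female median then turned positive, at 0.0153, the trisomic one was 0.0361, the median shift -0.0560, male-high genes 219 and 158, female-high 47 and 97, and upward and downward shifts 76 and 223. Of those genes 52 in normal and 53 in trisomic females were at the repeated low value, and 23 and 26 in males.

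Relative to 2R, 3L and 3R, medians were 0.16 in females, 0.30 in males, -0.14 and -0.0630 for the normal and trisomic sex difference and 0.0922 for its shift, with 101 higher and 24 lower in females and 138 and 47 in males. At 2-fold between karyotypes and 4-fold between sexes, 15 were higher and 5 lower in females, 42 and 35 in males, female-high members were 0 in normal and 0 in trisomic larvae, and shifts were 7 upward and 17 downward. Leaving out the 28 male-high members, chosen after seeing the data, left 0 male-high in trisomic larvae and 12 downward shifts.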
